A study of Bos taurus with 12 samples.

Results

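The mature miRNAs bta-miR-146a and bta-miR-146b (below miR-146a and miR-146b) were examined across 12 small RNA libraries from mammary biopsies of Chinese Holstein cows. The deposited table holds 388 mature miRNAs, of which these are 2, and each is listed with 1 precursor, bta-mir-146a and bta-mir-146b. Both were taken by name from the table. The pair was picked with earlier results of these libraries known, including the difference by protein percentage of the milk, so that difference and the course before calving are described here without a test.

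Each of the 12 libraries came from a different cow, all of them multiparous and free of mastitis. HP (3 cows) and LP (3 cows) stand for a high and a low protein percentage of the milk, with biopsies taken during lactation at 70 to 85 days in milk. HD (3 cows) and LD (3 cows) stand for the same contrast outside lactation, when the cows had been dry for 24 to 35 days and were 20 to 39 days from calving. No treatment separated the groups, stage and phenotype were compared between cows and not within a cow, and every direction below follows the group names of the labels. A biopsy holds all cell types of the gland, so more cells of a type and more RNA per cell cannot be told apart.

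The miR-146 family is best known as a brake on innate immune signalling. Transcription of miR-146a is switched on by NF-κB after Toll-like receptor stimulation, and the mature miRNA represses TRAF6 and IRAK1, which carry the signal to NF-κB. miR-146b carries the same seed as miR-146a, is nearly identical along its length and comes from a separate gene. In the udder they are best known from work on mastitis.

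In the RefSeq gene table of assembly ARS-UCD2.0 the precursors are MIR146A and MIR146B. They lie on different chromosomes and overlap no other listed gene. The nearest protein-coding genes listed around MIR146A are PTTG1 and ATP10B, and MIR146B lies next to CUEDC2. Because the mature sequences are so alike and reads were mapped with 1 mismatch allowed, a trimmed or misread copy of one could be counted for the other, and how many reads this concerned was not tested.

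Levels are in the authors' TPM, reads scaled to a common library total with no correction for length. The library totals implied by the smallest step between values ranged from 6026797 to 23577941 reads. Depth differed by stage, with a median of 10732749 reads in lactation (at most 13374171) and 21208518 in the non-lactating period (at least 11047701). The rarer member was never supported by fewer than 922 implied reads, so the counting error of a single value was at most 3.29%, well under the differences between cows. Epithelial, endothelial, muscle and blood cell miRNAs were all present, and the epithelial miRNAs miR-200a, miR-200b, miR-200c, miR-141, miR-429 and miR-205 were above 0 in every library.

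Both miRNAs were expressed in every library, and stood higher in rank in the non-lactating period than in lactation. In HP, miR-146a had 216, 272 and 274 TPM. In LP it had 759, 456 and 615 TPM. All 3 LP libraries exceeded all 3 HP libraries, with means of 254 ± 32.9 TPM in HP and 610 ± 152 TPM in LP (SD, n = 3).

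The non-lactating libraries had more miR-146a and differed more among themselves. The HD libraries held 987, 587 and 2266 TPM. In LD the values were 1432, 1250.2 and 3570.1 TPM. One library in each group, HD replicate 3 and LD replicate 3, was far above the other two, so the means of 1280.1 ± 877 TPM in HD and 2084 ± 1290.0 TPM in LD (SD, n = 3) carried a large spread.

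For miR-146b the lactating glands lay lower still. HP held 153, 109 and 132 TPM. LP held 431, 346 and 376 TPM. Again the LP libraries stood above all HP libraries, at 384 ± 43.2 TPM against 131 ± 22.1 TPM (SD, n = 3).

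Outside lactation miR-146b overtook miR-146a. The HD libraries had 1780.0, 1013 and 3807 TPM. The LD libraries had 1507, 1797 and 3816 TPM. The lowest non-lactating library was more than any lactating one, and the ranges of HD and LD overlapped, at 2200 ± 1444 TPM and 2373 ± 1258 TPM (SD, n = 3).

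**Figure D1:**
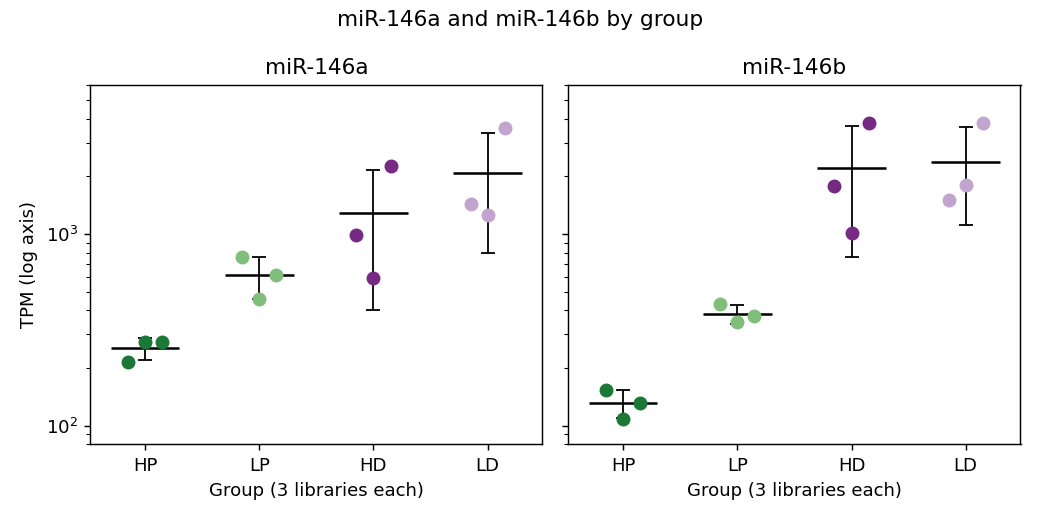
TPM of miR-146a (left) and miR-146b (right) on a log axis in HP, LP, HD and LD. Each point is 1 library, the horizontal line is the mean of 3 libraries and the bar is ± 1 SD. The lowest miR-146b value in the non-lactating libraries, 1013 TPM, lies above the highest in lactation, 431 TPM, whereas for miR-146a the HD library with 587 TPM falls within the LP range of 456 to 759 TPM.

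The order of the group means was HP, LP, HD, LD for both miRNAs. HP and LP did not overlap for either. LP and HD overlapped for miR-146a but not for miR-146b, and HD and LD overlapped for both. Ranked by mean TPM among the 388 miRNAs, miR-146a moved from 87 in lactation to 52 in the non-lactating period and miR-146b from 100 to 40. Together the pair made up 0.0369% to 0.119% of the miRNA reads of a lactating library and 0.160% to 0.739% of a non-lactating one.

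The first comparison asked how the pair differed between lactation and the non-lactating period, a contrast that weights HP and LP equally and therefore carries none of the phenotype difference. Both members were higher in the non-lactating period. The log2 stage difference, lactation minus non-lactating, was -1.76 for miR-146a (SE 0.43, 95% interval -2.70 to -0.83, limma adjusted p = 0.00593), a 3.40-fold higher level without lactation. For miR-146b it was -3.07 (SE 0.42, 95% interval -3.98 to -2.17, limma adjusted p = 0.000145), which is 8.43-fold. At the same threshold of 0.05, 22.2% of all 388 miRNAs were higher in the non-lactating period and 44.3% differed in either direction, so a call alone did not set the pair apart.

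The size of the change placed miR-146b at the top. Of the 388 miRNAs it had the largest log2 rise in the non-lactating period, and miR-146a ranked 12. The rank of miR-146b was 1 in 19 of 21 settings, 4 with a pseudocount of 0.1 and 3 without HD replicate 3 and LD replicate 3. For miR-146b the 6 non-lactating libraries did not overlap the 6 lactating ones, which held in this direction for 9.28% of all miRNAs in TPM and 10.3% in TPM divided by the size factor of the library (the median ratio of its values to the mean profile), here called normalized TPM. For miR-146a the stages overlapped.

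**Figure D2:**
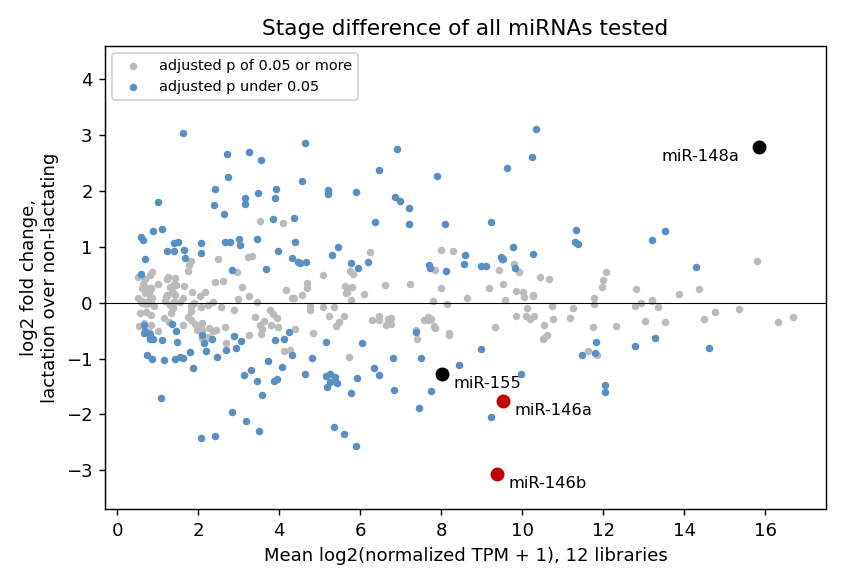
Each of the 388 miRNAs by its mean log2(normalized TPM + 1) over 12 libraries (horizontal axis) and its log2 stage difference, lactation minus non-lactating (vertical axis), coloured by limma adjusted p. The pair is marked in red and lies at -1.76 (miR-146a) and -3.07 (miR-146b), and miR-148a, a secretory miRNA, and miR-155 are marked in black for orientation.

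The call was also made without the 2 highest libraries. Leaving out HD replicate 3 and LD replicate 3, the log2 stage difference was -1.13 for miR-146a (limma adjusted p = 0.00676) and -2.48 for miR-146b (limma adjusted p = 0.000125). Both values were smaller in size by more than the SE, and both miRNAs were still past the threshold. Within a phenotype, the difference in log2 normalized TPM of HD over HP was 1.91 (SE 0.69) for miR-146a and 3.66 (SE 0.69) for miR-146b. For LD over LP it was 1.62 (SE 0.76) and 2.49 (SE 0.70). Whether the stage difference depended on phenotype was not tested, since it involves the contrast on which the pair was picked.

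The balance between the pair changed with stage. The ratio of miR-146b to miR-146a within a library does not depend on how libraries are scaled. It was 0.708, 0.399 and 0.481 in HP and 0.568, 0.759 and 0.611 in LP. In HD it was 1.80, 1.72 and 1.68, and in LD 1.05, 1.44 and 1.07. Thus miR-146a was the more abundant in all 6 lactating libraries and miR-146b in all 6 non-lactating libraries. Averaged as log2 values, the ratio was 2.49-fold higher in the non-lactating period (log2 difference of lactation minus non-lactating -1.31, p = 0.00216 in a two-sided exact permutation test, the lowest p that 6 libraries in each stage can give). Between HP and LP the ratios overlapped, at 0.529 ± 0.160 and 0.646 ± 0.101 (SD, n = 3). Between HD and LD they did not, at 1.74 ± 0.0630 and 1.19 ± 0.218 (SD, n = 3), a 1.48-fold higher ratio in HD, given without a test.

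**Figure D3:**
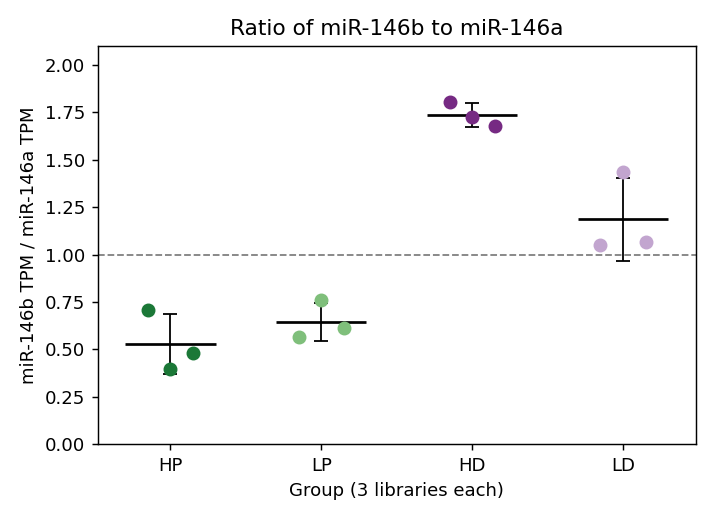
Ratio of miR-146b TPM to miR-146a TPM in each library, by group, with the mean of 3 libraries (line) and ± 1 SD (bar). The dashed line marks equal levels, with all lactating libraries at or under 0.759 and all non-lactating libraries at or over 1.05.

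The second question was how the pair differed between cows with more and with less protein in the milk. The table holds no measure of milk protein, so which libraries came from high and low protein cows could not be checked from the values. The direction between HP and LP, and between HD and LD, rests on the column names alone and is to be read as uncertain to that extent. During lactation the log2 fold change of LP over HP was 1.27 (SE 0.32) for miR-146a and 1.59 (SE 0.29) for miR-146b, which is 2.41-fold and 3.0-fold. Limits of 0.05 for the unadjusted p and 0.8 for the size of the log2 fold change were met in this direction by 5.93% of all miRNAs, and the pair, picked on this contrast, is given no call. No overlap of HP and LP in TPM, again with LP higher, was found for 9.02% of all miRNAs.

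Outside lactation the same comparison gave a log2 fold change of LD over HD of 1.00 (SE 0.74) for miR-146a and 0.43 (SE 0.73) for miR-146b. The SEs were larger than in lactation, and the same limits were met by 2.06% of all miRNAs with LD higher. Both members overlapped, where 1.55% of all miRNAs had every LD library above every HD library. Both values rested on single libraries. For miR-146a the log2 fold change was 0.36 without LD replicate 3 and 1.67 without HD replicate 3, and for miR-146b it was -0.14 and 1.09, with 0.00 without HD replicate 2 and 1.05 without LD replicate 1. For miR-146a, 1.54 was reached without LD replicate 1. Without size factors the log2 fold changes were 0.76 and 0.20, where the median over all miRNAs moved from 0.03 to -0.16.

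Some markers of other cells also differed between the phenotypes. Between HP and LP, the red blood cell miRNAs miR-451, miR-144 and miR-486 had log2 fold changes of LP over HP of 1.36 (SE 0.40), 1.58 (SE 0.63) and 0.20 (SE 0.37), and their sum was 781 to 1378 TPM among HP libraries and 1126 to 2041 TPM among LP libraries. miR-143, a smooth muscle and stromal miRNA, had 0.85 (SE 0.27). The muscle and stromal sum that it dominates was 66870.3 to 97798 TPM in HP and 122166 to 157824 TPM in LP, without overlap. The other muscle and stromal miRNAs went both ways. Higher in LP were miR-1 with 0.55 (SE 0.53), miR-133a with 0.13 (SE 0.44) and miR-214 with 0.07 (SE 0.36). Lower were miR-145 with -0.61 (SE 0.94), miR-199a-3p with -0.17 (SE 0.28) and miR-199a-5p with -0.02 (SE 0.23). The epithelial sums overlapped, at 34301 to 39034 TPM and 34490.1 to 44371 TPM. Between HD and LD, the red blood cell sum was 413 to 773 TPM and 680.2 to 6127 TPM, and the muscle and stromal sum was 99573 to 143084 TPM and 119182 to 238713 TPM, with overlap in each. What part these markers had in the differences of the pair was not tested.

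The spread within HD and LD was next set against the time to calving. Ordered from 39 to 20 days before calving, miR-146b had 1507 (LD, 39 days), 1780.0 (HD, 35 days), 1013 (HD, 29 days), 1797 (LD, 23 days), 3807 (HD, 21 days) and 3816 TPM (LD, 20 days). The corresponding values of miR-146a were 1432, 987, 587, 1250.2, 2266 and 3570.1 TPM. The 2 cows nearest to calving had the highest levels of both miRNAs, one from each phenotype, and the lowest level was in the cow at 29 days and not in those farthest from calving.

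In a fit with phenotype and days, the log2 level changed by -0.11 per day (SE 0.031) for miR-146a and by -0.12 per day (SE 0.027) for miR-146b, so that 10 fewer days to calving went with 2.17-fold and 2.24-fold higher levels. Such a slope with a limma adjusted p under 0.05 was found for 3.61% of all miRNAs in this direction. No test is given for the pair. The slope depended on scaling. Without size factors it was -0.059 and -0.063 per day, where the median over all miRNAs moved from -0.0021 to 0.041. The slopes used size factors from the 6 non-lactating libraries, and the factors and correlations given next are from all 12 libraries. These factors ran with the days, from 1.5 in both cows at 35 and 39 days to between 0.764 and 0.932 in the 3 cows at 20 to 23 days. Over the 6 cows the log2 normalized level of miR-146a had a Pearson correlation with days of -0.760 (Spearman -0.771), and that of miR-146b -0.867 (Spearman -0.829). With TPM not divided by size factors the Pearson correlations of log2 values were -0.537 and -0.661. Left without the 2 cows farthest from the median day, at 35 and 39 days, the normalized values gave -0.977 and -0.993 over 4 cows. Cows nearer to calving had mostly also been dry for longer (Spearman correlation of days before calving and days after dry-off -0.783), so time since dry-off and time to calving cannot be told apart.

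**Figure D4:**
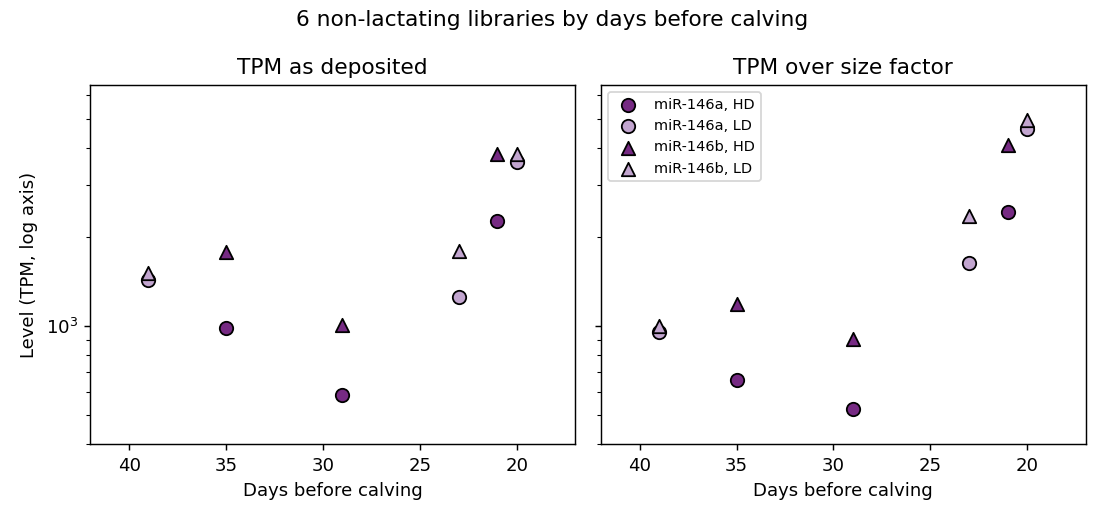
miR-146a (circles) and miR-146b (triangles) in the 6 non-lactating libraries against days before calving, which run down to the right, as deposited TPM (left) and divided by size factors (right), on log axes. Colour gives HD or LD. The libraries at 21 and 20 days are the highest for both miRNAs, with 3807 and 3816 TPM of miR-146b.

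The ratio of the members did not follow the levels, with a Pearson correlation of its log2 value with days of -0.041 (Spearman 0.086) over 6 cows and 0.625 over the 4 cows without those at 35 and 39 days. In LD it was 1.05 at 39 days, 1.44 at 23 days and 1.07 at 20 days. Over the deviations of the 12 libraries from their group means, the log2 levels of miR-146a and miR-146b had a correlation of 0.953, and the part of reads counted for both was not tested.

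In TPM not divided by size factors, marker miRNAs of the gland took different courses before calving. The size factors ran with the days, as given above, so the order of the libraries can differ in normalized TPM. The epithelial sum was 26633 and 27929 TPM in the libraries at 21 and 20 days and between 14978 and 38785 TPM in the other four, with the highest at 35 days. miR-148a, abundant in the secretory gland, had 22411 and 24465 TPM at 21 and 20 days and was highest at 39 days, with 53311 TPM. The sum of 6 miRNAs of the secretory gland, miR-148a among them, was 105060 TPM at 21 days and 167944 TPM at 20 days. In the others it was between 63840 and 117714 TPM, so its highest value was at 20 days. Single members did run with the pair. miR-141, of the miR-200 family, had 11011 and 16309 TPM in the libraries at 21 and 20 days and between 5563 and 7147 TPM in the others, and miR-30a-5p had 58204 and 116761 TPM there and at most 41008 TPM in the others. Both belong to the 6 secretory gland miRNAs and are named here because they came out among the profiles most like that of the pair. In TPM the summed white blood cell miRNAs did not follow the pair, at 10250.0 and 11786 TPM in these 2 libraries. In the others the sum was between 9054 and 21945 TPM, with the highest at 39 days. miR-142-5p made up most of this sum, with 8708 and 10015 TPM at 21 and 20 days and 17588 TPM at 39 days. miR-155, of the same list, had 464 and 507 TPM at 21 and 20 days. It had between 318 and 413 TPM at 23 to 35 days and was highest at 39 days, with 595 TPM. The size factor was 1.5 at 39 days, 0.932 at 21 days and 0.773 at 20 days. Normalized TPM of any miRNA or sum is therefore lower than TPM at 39 days and higher at 21 and 20 days. The place of the highest value of miR-155 and of the sums thus depends on scaling. What part the cell makeup of the biopsies had in the levels of the pair was not tested.

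The miRNAs with profiles most like that of the pair were sought among 232 others with a mean of at least 10 TPM, by Pearson correlation of log2 normalized levels with the mean of both members over the 12 libraries. The highest was miR-155 (0.948), an miRNA of activated lymphocytes and macrophages, followed by miR-379 (0.937), miR-411c-3p (0.916), miR-411a (0.903) and miR-502b (0.884). Over deviations from the group means, which remove stage and phenotype, the order was miR-379 (0.922), miR-141 (0.919), miR-30a-5p (0.901), miR-502b (0.892) and miR-362-5p (0.888), and miR-155 stood at 0.850. For miR-141 and miR-30a-5p the likeness was confined to these deviations, since over the 12 libraries their correlations with the pair were -0.141 and 0.072. The points share libraries and scaling, and no test is given.

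miR-379, from the imprinted DLK1-DIO3 cluster, followed the pair through both stage and cow. Its mean was 8.30 ± 2.56 TPM for HP, 66.2 ± 24.5 for LP, 212 ± 216 for HD and 264 ± 217 for LD (SD, n = 3). By days before calving its values were 48.3, 159, 28.3, 260.5, 449.7 and 483 TPM, highest like the pair at 21 and 20 days and lowest at 29 days. miR-155 differed with stage, and its phenotype groups overlapped, with means of 149 ± 21.6 TPM for HP, 177 ± 31.3 for LP, 399 ± 73.1 for HD and 473 ± 142 for LD (SD, n = 3). Its log2 stage difference was -1.29 (SE 0.21, limma adjusted p = 0.000415).

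A list of 18 miRNAs known to respond to Toll-like receptor, NF-κB or interleukin signalling was set beside the pair, and all 18 were in the table. In the non-lactating period 6 rose and the other 12 did not pass the test, at a limma adjusted p under 0.05. The median log2 stage difference of the list was -0.36, against -0.01 over all miRNAs, of which 22.2% rose and 22.2% fell. The largest change of the list was in miR-147, an miRNA induced by Toll-like receptors in macrophages, with a range of 7.96 to 40.9 TPM in lactation and 39.1 to 271 TPM without lactation (log2 stage difference -2.22 with SE 0.36, limma adjusted p = 0.000404). miR-9-5p, which responds to NF-κB in monocytes and neutrophils, had 4.15 to 13.6 TPM in lactation and 19.1 to 35.0 TPM in the non-lactating period, with no overlap (log2 stage difference -1.39 with SE 0.26, limma adjusted p = 0.00103).

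miR-221, expressed in vessels and blood progenitors, had 243 to 634 TPM in lactation and 478 to 1028 TPM in the non-lactating period (log2 stage difference -0.83 with SE 0.23, limma adjusted p = 0.0112). miR-212 and miR-187 also passed, but both are near the limit of detection in lactation, with medians of 0.580 and 0.435 TPM where 3 reads correspond to as much as 0.498 TPM. The abundant members were among those that did not pass, such as miR-21-5p, often raised in inflamed tissue (log2 stage difference -0.29, SE 0.20), and miR-125b, known to fall after endotoxin (-0.34, SE 0.21). miR-132, which is induced early in monocytes by endotoxin, had -0.32 (SE 0.42), and miR-223, the granulocyte miRNA, 0.13 (SE 0.35).

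**Figure D5:**
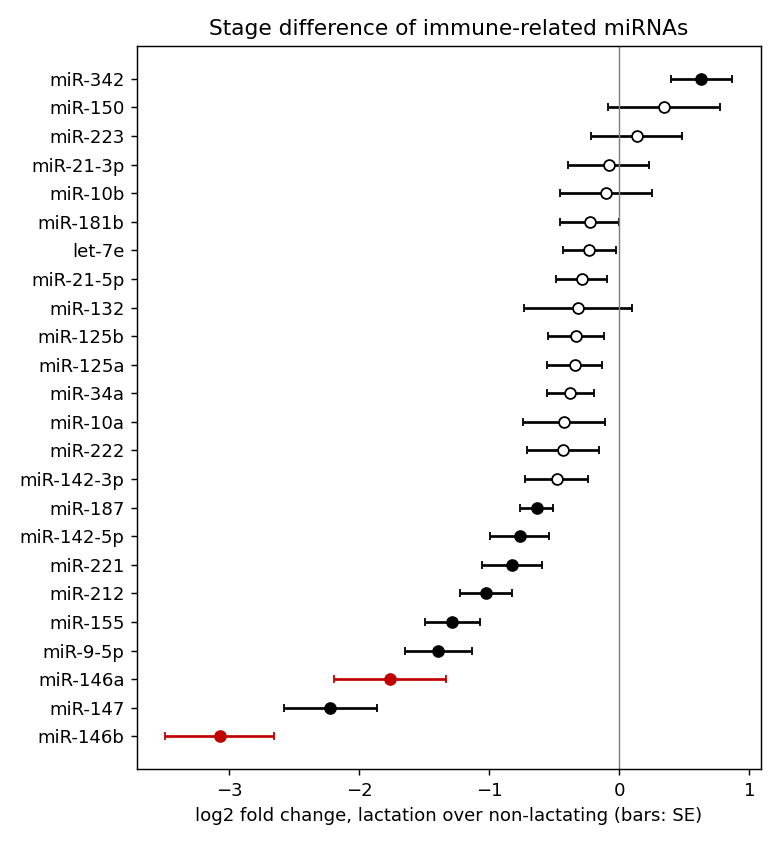
Log2 stage difference, lactation minus non-lactating, with its SE for miR-146a and miR-146b (red) and for the miRNAs of the innate signalling list and the white blood cell list (black). Filled points have a limma adjusted p under 0.05, and miR-146b at -3.07 and miR-147 at -2.22 lie farthest to the left.

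White blood cell miRNAs passed the stage test in part, as did 44.3% of all 388 miRNAs, of which 22.2% rose and 22.2% fell. The number of calls alone therefore did not set this list apart. Of 6 on the list, 2 of them (miR-155 and miR-223) shared with the innate signalling list, all in the table and none at 0 in a library, miR-142-5p and miR-155 rose in the non-lactating period, miR-342 fell and miR-142-3p, miR-150 and miR-223 did not pass the test. miR-142-5p, found across white blood cells, had a log2 stage difference of -0.77 (SE 0.23, limma adjusted p = 0.0165), and miR-342 had 0.63 (SE 0.24, limma adjusted p = 0.0471). The sum over the list spanned 7223 to 10282 TPM among HP libraries, 5732 to 7788 TPM among LP, 9054 to 12207 TPM among HD and 10947 to 21945 TPM among LD libraries. Between HP and LP the ranges of the sum overlapped. The log2 fold changes of LP over HP went both ways in the list, with 0.41 (SE 0.42) for miR-223, 0.28 (SE 0.26) for miR-155, 0.14 (SE 0.29) for miR-142-3p, -0.09 (SE 0.33) for miR-142-5p, -0.78 (SE 0.25) for miR-342 and -1.69 (SE 0.61) for miR-150. As a share of that sum the pair amounted to 3.71% to 5.11% for HP, 10.3% to 20.8% for LP, 17.7% to 59.3% for HD and 13.4% to 62.7% for LD.

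Other cell type miRNAs were set against stage as well, where 22.2% of all 388 miRNAs rose and 22.2% fell. Of 6 epithelial miRNAs 5 fell in the non-lactating period and 1, miR-205, did not pass. The sum was 34301 to 44371 TPM over the lactating libraries and 14978 to 38785 TPM over the non-lactating ones. Among 6 miRNAs of the secretory gland, 3 of them shared with the epithelial list, 4 fell, with miR-375 at a log2 stage difference of 3.11 (SE 0.27) and miR-148a at 2.79 (SE 0.26), and the sum ranged from 193142 to 317233 TPM in lactation and from 63840.5 to 167944 TPM without it. Both endothelial miRNAs, miR-126-3p and miR-126-5p, fell. Of 8 muscle and stromal miRNAs 7 were in the table, of which miR-199a-3p and miR-214 rose and 5 did not pass. The red blood cell miRNAs miR-144, miR-451 and miR-486 had log2 stage differences of 1.43 (SE 0.72), 0.92 (SE 0.69) and 0.58 (SE 0.54) and did not pass. What part these shifts had in the stage difference of the pair was not tested.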

How the data were processed

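The authors trimmed reads with Cutadapt 2.8 and Trimmomatic 0.36, retained lengths of 18 to 30 nt and aligned these with Bowtie 1.1.1 (1 mismatch) against the ARS-UCD1.2 build. Known miRNAs (miRBase 22.0) were quantified in miRDeep2. The deposited values are RPM, called TPM by the authors, in 1 table with a column per library. Each column was matched to a sample by group and replicate number in its title, and 0 columns were left unused. Days were taken from the study's list of cows.

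For each mature miRNA the precursor entry with the highest mean was kept. Size factors (median of ratios, over the libraries of a fit) scaled the TPM, 1 was added and log2 taken. Moderated linear models with a trend, in limma 3.58.1 under R 4.3.3, were fitted to all 388 miRNAs, over 12 libraries for stage and over the 6 of a stage for phenotype and days, with Benjamini-Hochberg adjustment. Ratios were compared with exact permutation tests (scipy 1.17.1). On simulated data for the stage comparison, where 200 of 388 miRNAs were shifted by 1 on the log2 scale, 83% were recovered and 2.13% of the others were called. Read totals were inferred from the step between values, of which 99.8% to 100% in each library were whole multiples within 0.0051 TPM, and floors and counting errors cover counting error only. Each sample is a separate cow.

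The members and lists were chosen with earlier results of these data known. Named are the pair, the miRNAs of the lists and the 5 most similar by each of both measures. Alternatives were TPM without size factors, other pseudocounts, a filter on low values, no trend, every precursor entry, a replicate block, 1 fit for all libraries and leaving out single libraries.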

Additional observations from a re-analysis of the deposited data

How the results depend on the processing

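The stage difference kept its direction and its side of the threshold in all 20 alternatives for each member, at log2 values from -2.01 to -1.13 for miR-146a (limma adjusted p from 0.00137 to 0.0162) and from -3.36 to -2.48 for miR-146b (limma adjusted p from 1.45e-05 to 0.000736). That of the ratio did so in 15 alternatives, from -1.40 to -1.21. The alternative without HD replicate 3 and LD replicate 3 was chosen after seeing the data.

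Leaving out single libraries gave log2 fold changes of LP over HP from 0.98 to 1.56 for miR-146a and from 1.38 to 1.75 for miR-146b, of LD over HD from 0.36 to 1.67 and from -0.14 to 1.09, and slopes per day from -0.15 to -0.085 and from -0.14 to -0.094. The slope without size factors was -0.059 and -0.063 per day. With the replicate number as a block the slope of miR-146b was -0.18 per day, and the stage difference stayed at -1.76 and -3.07 (limma adjusted p = 0.00339 and 0.000184). For LD over HD it left the log2 fold changes at 1.00 and 0.43, with SEs of 0.30 and 0.37 in place of 0.74 and 0.73. Permuted within replicate numbers, the ratio difference of -1.31 had an exact p of 0.00926, the smallest possible. Same-numbered libraries came from different cows. In replicate order the days before calving were 35, 29 and 21 in HD and 39, 23 and 20 in LD. A block on the number and the time to calving therefore cannot be told apart there. The deviations of same-numbered HD and LD libraries had correlations from -0.113 to 0.548, and those of HP and LP from -0.256 to 0.009. Planned count tests with edgeR and DESeq2 were not run, since the deposited values are not counts. Depth limits only miR-187 and miR-212 among the miRNAs named.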
